A study of Homo sapiens with 24 samples.

Results

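In 4 diffuse large B-cell lymphoma (DLBCL) lines, 10 genes were examined after silencing of FOXP1, a forkhead transcription factor. FCRL1, FCRL2, FCRL3, FCRL4, FCRL5, FCRLA and FCRLB belong to the Fc receptor-like (FCRL) family. FCGR2B, FCER2 and FCGBP encode proteins that bind the Fc part of immunoglobulin. FCRL6 was not among the gene names of the array. The 10 genes were chosen by name, with earlier results of these data known. Every probe carrying one of these names in the array design was used, which gave 18 of 41000 probes and 10 of 30142 genes. FCRL5 and FCGBP were among the genes the study followed up by qRT-PCR, for which a large change on these same samples was one ground of choice, so their response to silencing is described without a test, and the other 8 were tested with limma across all genes. Each 2-colour array compared RNA of cells nucleofected with an siRNA against FOXP1, siFOXP1_308 or siFOXP1_309, with RNA of the same line given a non-silencing siRNA (siCtrl), after 48 h. DB and K422 represent the germinal centre B-cell-like subtype (GCB-DLBCL), and HBL-1 and OCI-Ly3 the activated B-cell-like subtype (ABC-DLBCL), so a subtype is 2 established lines and a line is 1 cell population. Each combination of line and siRNA had 3 biological replicates, which makes 6 arrays per line and 24 in all. The dyes were never swapped, with Cy3 always on the silenced RNA and Cy5 on the siCtrl RNA, which means that an effect of dye on a probe and a response cannot be told apart inside 1 line. Silencing was transient, and the change of FOXP1 itself averaged between -2.00 in DB and -1.34 in K422 on the log2 scale, lower on 6 of 6 arrays in each line.

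In siCtrl cells the B cell genes MS4A1, CD79A, CD79B, PAX5 and CD22 were well above background on all 6 arrays of every line. Of 4 germinal centre markers, MME was not well above background on any siCtrl array of HBL-1 or OCI-Ly3 and MYBL1 was on all 6 in DB and K422 only, whereas BCL6 and LMO2 were on all 6 in every line and LMO2 had its highest level in OCI-Ly3 (9.83). Of 5 markers of the activated type, IRF4, CCND2 and TNFRSF13B were not above background in DB or K422, whereas PIM1 and IL16 were above it on all arrays of every line. Of the T cell genes CD3D, CD3E, CD3G and CD2, 3 were well above background on all 6 siCtrl arrays in K422 and at most 1 in the other lines, and none of the 4 passed the test for a response in any line. Between 57.3% and 64.5% of probes on an array stood well above background in at least 1 channel, and precision is limited by how many arrays there are. Of the myeloid genes CD14, LYZ, CSF1R and ITGAM, LYZ (0.59) was called higher in DB, CSF1R (-0.99) and LYZ (-0.78) lower in K422 and none in HBL-1 or OCI-Ly3, and their part in the results was not tested. There were 2 scan sessions, OCI-Ly3 sharing one with DB and HBL-1 sharing the other with K422, which puts both subtypes in each session.

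FCRL1 to FCRL5 are type I membrane receptors of B cells with immunoglobulin-like domains outside and tyrosine motifs inside. Inhibitory motifs (ITIM) recruit the phosphatases PTPN6, PTPN11 and INPP5D and restrain the B cell receptor, whereas activating motifs (ITAM-like) favour its signalling. FCRL1 carries activating motifs, FCRL2 and FCRL4 are mainly inhibitory, and FCRL3 and FCRL5 combine both. FCRLA and FCRLB lack a membrane anchor and stay inside the cell. FCGR2B (CD32B) is the classical inhibitory receptor for IgG on B cells, FCER2 (CD23) is a lectin-type receptor for IgE, and FCGBP is a large mucin-like protein that binds the Fc of IgG and is best known from epithelia.

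FCRL5, FCRL4, FCRL3, FCRL2 and FCRL1 lie side by side in this order on chromosome 1, all on the minus strand, and their main probes span 282.305 kb of hg18, the build of the files, from 155749862 for FCRL5 to 156032226 for FCRL1. The main probes of FCGR2B (159913744 to 159913913), FCRLA (159950416 to 159950475) and FCRLB (159963084 to 159963143) lie farther along chromosome 1 on the plus strand. Those of FCER2 (7667799 to 7667956) and FCGBP (45045908 to 45045966) lie on the minus strand of chromosome 19. The array design places every probe in a transcript of its gene, and an exon annotation of hg18 was not used here. Because the 5 clustered genes are compared with each other, the 100 bases before the RefSeq start site of each are shown 5′ to 3′ on the minus strand (GRCh38.p14), with ACTTCC in capitals.
FCRL1, chr1:157820121-157820220: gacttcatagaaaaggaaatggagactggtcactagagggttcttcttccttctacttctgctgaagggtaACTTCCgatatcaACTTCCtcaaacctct
FCRL2, chr1:157777133-157777232: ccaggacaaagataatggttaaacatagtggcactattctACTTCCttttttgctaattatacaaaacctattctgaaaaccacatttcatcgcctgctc
FCRL3, chr1:157700770-157700869: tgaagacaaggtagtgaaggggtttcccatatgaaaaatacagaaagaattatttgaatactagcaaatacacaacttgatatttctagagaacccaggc
FCRL4, chr1:157598086-157598185: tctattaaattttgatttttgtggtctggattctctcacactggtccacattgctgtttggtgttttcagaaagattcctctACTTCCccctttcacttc
FCRL5, chr1:157552516-157552615: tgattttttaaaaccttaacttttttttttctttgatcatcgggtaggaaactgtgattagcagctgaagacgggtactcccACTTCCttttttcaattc

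The letters ACTTCC, whose reverse complement GGAAGT was searched as well, were picked after these sequences had been read. They stood 18 bases before the start site in both FCRL4 and FCRL5, 60 bases before it in FCRL2, and 29 and 16 bases before it in FCRL1, and the FCRL3 window did not hold them. Among all 14 start sites of the 10 genes in the reference, 6 held them in this window, against 10.4% of 35116 promoters. Of the words bound by forkhead factors, TATTTAT stood on either strand in 4.93% of all promoters of 300 bases, TATTTGT in 3.50% and TGTTTAC in 3.42%. At least 1 of them was in 10.87% of all promoters and in 1 of the 14 member promoters, that of FCRL2, as TATTTAT. A match of letters is a description and not a site.

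FCRL2 rose in HBL-1, FCGR2B fell there, and FCRL3 was called in 3 lines by its main probe, which is not shown. The dimmer FCRL3 probe gave 0.22 in OCI-Ly3 (limma adjusted p = 0.623). Shown are the 60-base probes of FCRL2 (main probe), FCRL3 (its dimmer probe) and FCGR2B.
FCRL2, chr1:156003301-156003360, minus strand: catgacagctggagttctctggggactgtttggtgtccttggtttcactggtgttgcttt
FCRL3, chr1:155915222-155915366, minus strand: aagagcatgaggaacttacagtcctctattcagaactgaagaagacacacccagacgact
FCGR2B, chr1:159913744-159913913, plus strand: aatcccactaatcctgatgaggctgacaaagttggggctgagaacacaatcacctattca

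The coordinates are hg18, and those of FCRL3 and FCGR2B span more than 60 bases so these probes are not contiguous in the genome. Over 96 pairs of probes of different FCRL genes, the longest shared run was 9 bases and the best identity 50%. FCGR2B has near-identical neighbours in FCGR2A and FCGR2C, and whether its probe also reads them was not tested.

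In siCtrl cells the lines differed widely in which members they carried. A level is the log2 Cy5 intensity after scaling between arrays, arrays of the same line and replicate number being averaged (n = 3 per line), and is compared between lines for 1 probe only. In these bulk samples fewer cells carrying a transcript and less of it per cell cannot be told apart. HBL-1 had the highest FCRL5 level, 9.08 ± 0.33 (SD, n = 3), OCI-Ly3 followed at 8.25 ± 0.25, DB at 6.04 ± 0.80 and K422 at 3.01 ± 0.09, the last not well above background on any array. The 3 replicates of a line never overlapped those of the next line in this order. OCI-Ly3 was 4.64-fold higher than DB (limma adjusted p = 0.000278) and HBL-1 at least 35.9-fold higher than K422 (adjusted p = 1.30e-07), a bound set against the dimmest signal that counts as above background. The second FCRL5 probe gave 6.46 in HBL-1 against 5.71 in OCI-Ly3, and was not well above background in DB or K422.

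The other clustered receptors ran the other way or were split. FCRL2 ran from K422 (12.21 ± 0.16) through DB (10.75 ± 0.27) and HBL-1 (8.37 ± 0.04) down to OCI-Ly3 (4.60 ± 0.01), with no overlap between neighbours, and OCI-Ly3 was 70.9-fold below DB (adjusted p = 9.86e-11) and HBL-1 14.3-fold below K422 (3.77e-09). FCRL1 was highest in K422 at 9.72 ± 0.27, followed by HBL-1 at 7.42 ± 0.12, DB at 6.18 ± 0.10 and OCI-Ly3 at 2.79 ± 0.35, where 1 of 6 arrays was well above background. By its main probe FCRL3 was at 9.53 ± 0.58 in DB and 9.14 ± 0.08 in HBL-1, whose replicates overlapped. It was at 8.33 ± 0.39 in K422 and not well above background on any siCtrl array of OCI-Ly3. OCI-Ly3 was at least 41.1-fold below DB (adjusted p = 5.34e-09). The dimmer FCRL3 probe gave 7.58 in DB, 6.05 in K422 and 5.83 in HBL-1, where HBL-1 did not overlap DB. The FCRL3 probes thus did not give the same order. The main probe of FCRL4 was well above background on 4 of 6 arrays in HBL-1, at 4.18 ± 0.77, and on none in the other lines, and all neighbours in its order overlapped. Another FCRL4 probe was well above background on 1 siCtrl array, in OCI-Ly3, where its level of 3.55 was above that in HBL-1 (2.46, adjusted p = 0.0389), so the FCRL4 probes did not give the same order. OCI-Ly3 and HBL-1 were scanned in different sessions. By their main probes on the 6 siCtrl arrays of OCI-Ly3, FCRL5 was well above background on all 6, FCRL2 on 4, FCRL1 on 1 and FCRL3 and FCRL4 on none, whereas FCRL1, FCRL2 and FCRL3 were on all 6 in DB and K422.

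FCRLA, FCRLB and FCGR2B were well above background on all 24 arrays. FCRLA fell in the order DB (14.46 ± 0.06), K422 (14.10 ± 0.19), HBL-1 (12.96 ± 0.09) and OCI-Ly3 (11.85 ± 0.17), and FCGR2B in the order K422 (13.89 ± 0.07), DB (11.98 ± 0.04), HBL-1 (10.49 ± 0.09) and OCI-Ly3 (8.25 ± 0.33), without overlap between neighbours. FCGR2B was 13.2-fold lower in OCI-Ly3 than in DB and lower in HBL-1 than in K422 by -3.39 on the log2 scale (adjusted p = 1.83e-08). The main probe of FCRLB was highest in K422 at 14.26 ± 0.30 and overlapped between DB (12.46 ± 0.34) and OCI-Ly3 (12.44 ± 0.31). Its other probe was 2.73-fold lower in OCI-Ly3 than in DB (adjusted p = 9.74e-06) and 23.1-fold lower in HBL-1 than in K422 (7.28e-09), so the FCRLB probes did not give the same differences. For that other probe 4 arrays of K422 remained after outlier spots were left out, so the comparison lacks a replicate of K422. FCER2 was highest in OCI-Ly3 at 6.34 ± 0.21, reached 4.81 ± 0.34 in HBL-1, and was not well above background in DB or K422, so that OCI-Ly3 was at least 2.94-fold above DB and HBL-1 at least 1.85-fold above K422. FCGBP was highest in DB at 7.65 ± 0.53, followed by OCI-Ly3 at 5.89 ± 0.59, and K422 (4.55 ± 0.06) and HBL-1 (4.29 ± 0.32) overlapped.

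Levels were called where they differed by 1 or more on the log2 scale with an adjusted p under 0.05. By this measure OCI-Ly3 had 2 members above DB (FCRL5 and FCER2) and 6 below it (FCRL1, FCRL2, FCRL3, FCRLA, FCGR2B and FCGBP), where 26.8% of all genes were called in either direction. HBL-1 had 3 above K422 (FCRL4, FCRL5 and FCER2) and 4 below it (FCRL1, FCRL2, FCRLA and FCGR2B), where 25.8% of all genes were called. By main probes, FCRL5, FCER2, FCRL1, FCRL2, FCRLA and FCGR2B were thus called the same way in both pairs. Each pair lies within 1 scan session. The dimmer FCRL1 probe was not well above background on any siCtrl array of OCI-Ly3 or DB, and differed between them by 0.02. For FCER2 the difference of HBL-1 from K422 is measured only as at least 1.85-fold. With normexp background correction, which compresses dim signals, the differences of FCRL1 (-0.72), FCER2 (0.76) and FCGBP (-0.96) between OCI-Ly3 and DB and of FCER2 (0.27) between HBL-1 and K422 fell short of 1, as did that of FCRLA between HBL-1 and K422 with 75th percentile scaling (-0.97). The call for FCRL4 was lost without replicate 1 of K422 (adjusted p = 0.0587), without replicate 2 of HBL-1 (0.0772) and without replicate 3 of HBL-1 (0.063). It was also lost with normexp, where the log2 difference was 0.19 (adjusted p = 0.201). The other 4 pairs of lines also cross scan sessions. Apart from 1 FCRL4 probe in OCI-Ly3 against HBL-1, only their order and overlap are given above.

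**Figure D1:**
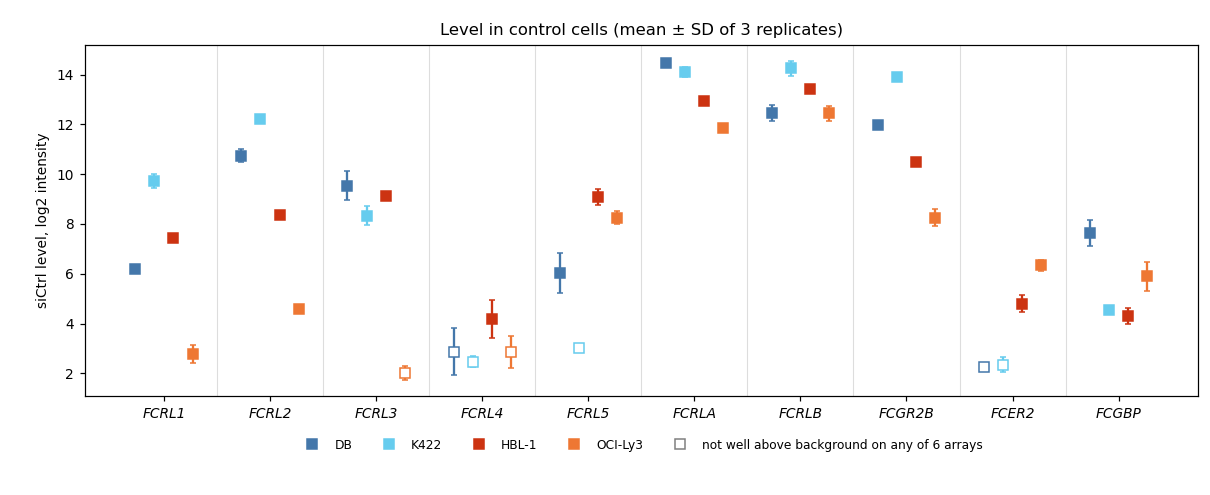
siCtrl level (log2 Cy5 intensity, mean ± SD of 3 replicates) of the main probe of each gene in the 4 lines, with open squares where no array of the line was well above background. FCRL5 and FCER2 stand higher in HBL-1 and OCI-Ly3 (ABC-DLBCL), and FCRL2, FCRLA and FCGR2B higher in DB and K422 (GCB-DLBCL); positions of different genes on the axis are not comparable.

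All 5 clustered receptors stood higher after FOXP1 silencing on every array of HBL-1, and the 4 that were tested rose. For FCRL5 the log2 ratio of siFOXP1 to siCtrl was 3.24, 2.89 and 3.04 with siFOXP1_308 and 3.61, 3.06 and 3.47 with siFOXP1_309, so the arrays of both siRNAs lay together and far from 0. The mean was 3.22 ± 0.28 (SD, n = 6 arrays), or 9.30-fold, and its level went from 9.08 to 12.30. The second FCRL5 probe averaged 2.89. These FCRL5 values are a description, since such values may have led to its choice.

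By main probes FCRL3 came next in HBL-1, with 2.87, 2.47 and 2.54 for siFOXP1_308 and 2.95, 2.68 and 2.65 for siFOXP1_309. All 6 arrays were close together, the mean was 2.69 ± 0.19, or 6.46-fold (limma adjusted p = 8.86e-10), and the dimmer probe gave 3.37. FCRL2 ran from 1.38 through a median of 1.56 to 1.70, with a mean of 1.54 ± 0.11 (adjusted p = 1.87e-10), and its second probe gave 1.70. FCRL1, the member with activating motifs, ran from 1.27 through 1.36 to 1.69, with a mean of 1.42 ± 0.18 (adjusted p = 4.20e-07), and its dimmer probe gave 0.79.

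FCRL4 was more scattered in HBL-1, at 2.56, 1.97 and 1.03 with siFOXP1_308 and 2.11, 1.04 and 0.81 with siFOXP1_309. It was higher on 6 of 6 arrays, with a mean of 1.59 ± 0.72 (adjusted p = 4.73e-05), and its other probes gave 1.69 and 1.21 with siCtrl above background on 0 and 1 arrays. Its siCtrl signal was well above background on 4 arrays only, and with normexp background correction the mean was 0.34 with loess and 0.35 with median centring, below the limit of 0.5 for a call. FCRL4 had the widest spread between arrays of the clustered genes in HBL-1, an SD of 0.72 against 0.11 to 0.28 for the other 4.

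In OCI-Ly3 the cluster responded in part. FCRL5 gave 1.73, 1.29 and 1.40 with siFOXP1_308 and 2.04, 1.85 and 2.10 with siFOXP1_309, every array of the second siRNA lying above every array of the first. The mean was 1.73 ± 0.33, or 3.33-fold, the second probe gave 1.54, and both channels were well above background on all 6 arrays. FCRL3 gave 2.75, 1.45 and 1.72 with siFOXP1_308 and 3.65, 2.85 and 3.20 with siFOXP1_309. Its mean was 2.60 ± 0.85 (adjusted p = 5.79e-09), but its siCtrl signal was not well above background on any array and its siFOXP1 signal on 4 of 6, so only a rise of at least 1.36-fold is measured. The call was lost with normexp, at 0.41 with loess and 0.44 with median centring (adjusted p = 0.153), and the dimmer FCRL3 probe gave 0.22 with 1 array above background.

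FCRL4 in OCI-Ly3 had a mean of 1.05 ± 0.68 (adjusted p = 0.00442), with siCtrl not well above background on any array and siFOXP1 on 3. Its call was lost without replicate 3 of OCI-Ly3 (0.71, adjusted p = 0.103) and with siFOXP1_308 alone (0.82, 0.134). It was also lost with OCI-Ly3 fitted alone (adjusted p = 0.0624) and with normexp (log2 ratios of 0.12 with loess and 0.14 with median centring). The other FCRL4 probes gave 0.09 and 0.39. FCRL2 was higher on 6 of 6 arrays at 0.33 ± 0.13 (adjusted p = 0.00534), under the limit of 0.5, and its second probe, with siCtrl above background on 1 array, gave 0.82. With the mean over its probes FCRL2 in OCI-Ly3 was called (0.57, adjusted p = 0.000174). FCRL1 was at -0.34 ± 0.61, with the siCtrl signal above background on 1 array and the siFOXP1 signal on none.

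In the GCB-DLBCL lines FCRL3 in K422 was the only tested gene of the cluster that was called. It gave 1.51, 1.06 and 0.79 with siFOXP1_308 and 0.91, 1.04 and 0.77 with siFOXP1_309, higher on 6 of 6 arrays, with a mean of 1.01 ± 0.27, or 2.02-fold (adjusted p = 0.00013), and 1.24 at the dimmer probe. FCRL2 in K422 was higher on 6 of 6 arrays at 0.41 ± 0.12 (adjusted p = 0.000898) and stayed under the limit, as its second probe did at 0.47. FCRL1 in K422 was at 0.22 ± 0.22 with its main probe and at -0.30 with the dimmer one. FCRL5 was not well above background in either channel on any array of K422.

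In DB, FCRL5, FCRL3, FCRL2 and FCRL1 were well above background in both channels on all 6 arrays. FCRL5 gave -0.52, 0.04 and 1.34 with siFOXP1_308 and -0.12, -0.15 and 0.64 with siFOXP1_309, both values of replicate 3 lying above the rest. Its mean was 0.20 ± 0.67, and -0.19 without replicate 3. FCRL3 was at 0.01 ± 0.39, FCRL2 at -0.01 ± 0.34 and FCRL1 at 0.10 ± 0.34, with arrays on both sides of 0. These 4 means lay within the spread between the arrays.

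**Figure D2:**
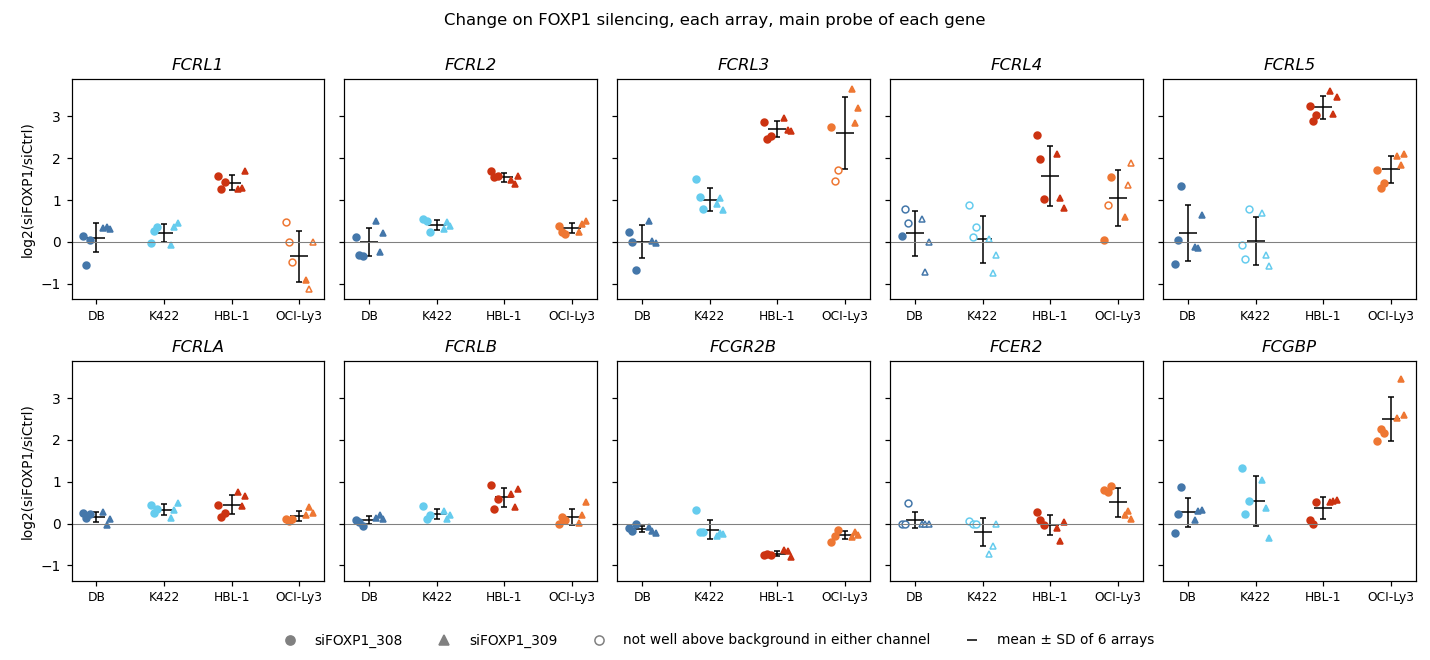
log2(siFOXP1/siCtrl) of the main probe of each member on every array, by line, with circles for siFOXP1_308, triangles for siFOXP1_309, open symbols where neither channel was well above background, and bars for the mean ± SD of 6 arrays. FCRL1 to FCRL5 stand above 0 on every array of HBL-1, FCRL3 also on every array of K422 and OCI-Ly3, and FCGR2B below 0 on every array of HBL-1.

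FCRL5 was set against each relative on the same arrays, as a difference of log2 ratios. In HBL-1 it exceeded FCRL1 by 1.80, FCRL2 by 1.67, FCRL4 by 1.63, FCRLA by 2.77 and FCRLB by 2.59, on 6 of 6 arrays each. The margin over the main FCRL3 probe was 0.52, from 0.37 to 0.82, again on 6 of 6 arrays. The dimmer FCRL3 probe averaged 3.37 in HBL-1, above the 3.22 of FCRL5, so the order of FCRL5 and FCRL3 there depends on the probe. In OCI-Ly3 FCRL5 exceeded FCRL2 by 1.41 and FCRLA by 1.55 on 6 of 6 arrays, but its ratio was below that of FCRL3 on 6 of 6, the difference being -0.87, with the FCRL3 ratio resting on a siCtrl signal at background. In K422 FCRL5 was not well above background in either channel, so no margin is given there. In DB the mean difference from each of the 6 relatives lay between 0.00 and 0.21, with SDs from 0.67 to 1.02. FCRL5 was chosen for its size, so these margins are descriptions.

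**Figure D3:**
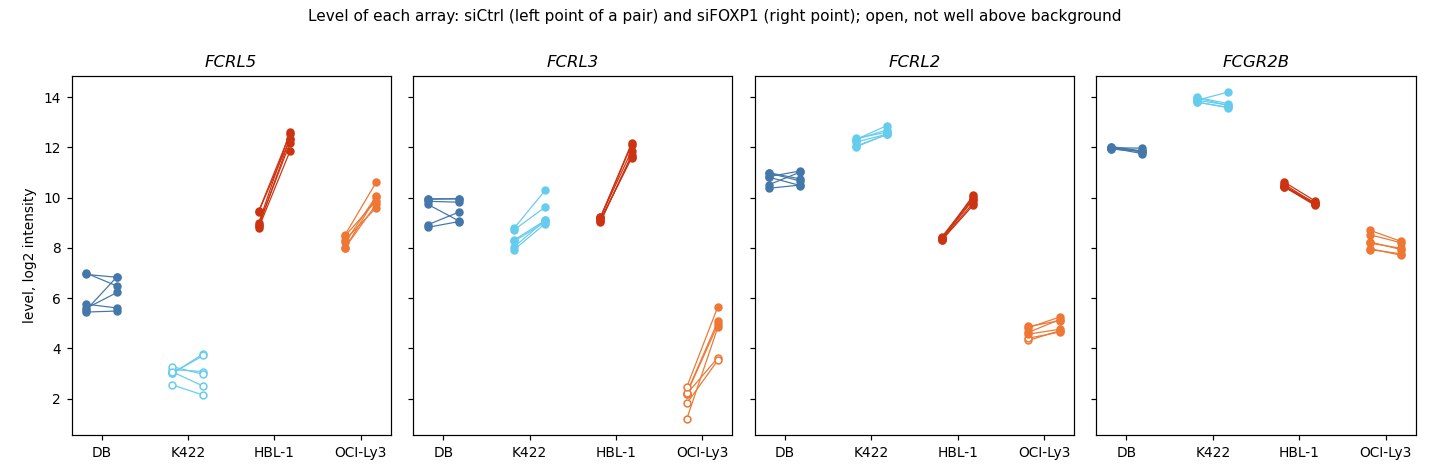
Level of FCRL5, FCRL3, FCRL2 and FCGR2B on each array in log2 intensity, with siCtrl on the left and siFOXP1 on the right of each joined pair and open points where not well above background. FCRL5 went in HBL-1 from a mean of 9.08 to 12.30 and in OCI-Ly3 from 8.25 to 9.99, FCRL3 in OCI-Ly3 started at background, and FCGR2B in HBL-1 went from 10.49 to 9.77.

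In and around the cluster, 12 other array genes had their probe within 500 kb, a window chosen after the values had been seen. AF343666 (83.86 kb from the FCRL5 probe) and THC2767659 (279.71 kb) lay inside the span of the cluster. Whether their probes read FCRL transcripts was not tested. In HBL-1 3 of the 12 were higher (THC2767659, CD5L and CD1D), where 5.73% of all genes were, and in K422 1 (AF343666), where 2.34% were. In DB and OCI-Ly3 none was higher, and none was lower in any line. CD5L, which had the largest value at 1.33, was well above background in either channel on 1 of 6 arrays of HBL-1. HBL-1 gave them a median of 0.20, where FCRL5 was at 3.22, and OCI-Ly3 one of -0.03, where FCRL5 was at 1.73. CD5L encodes a secreted scavenger receptor protein and CD1D a lipid-presenting molecule.

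**Figure D4:**
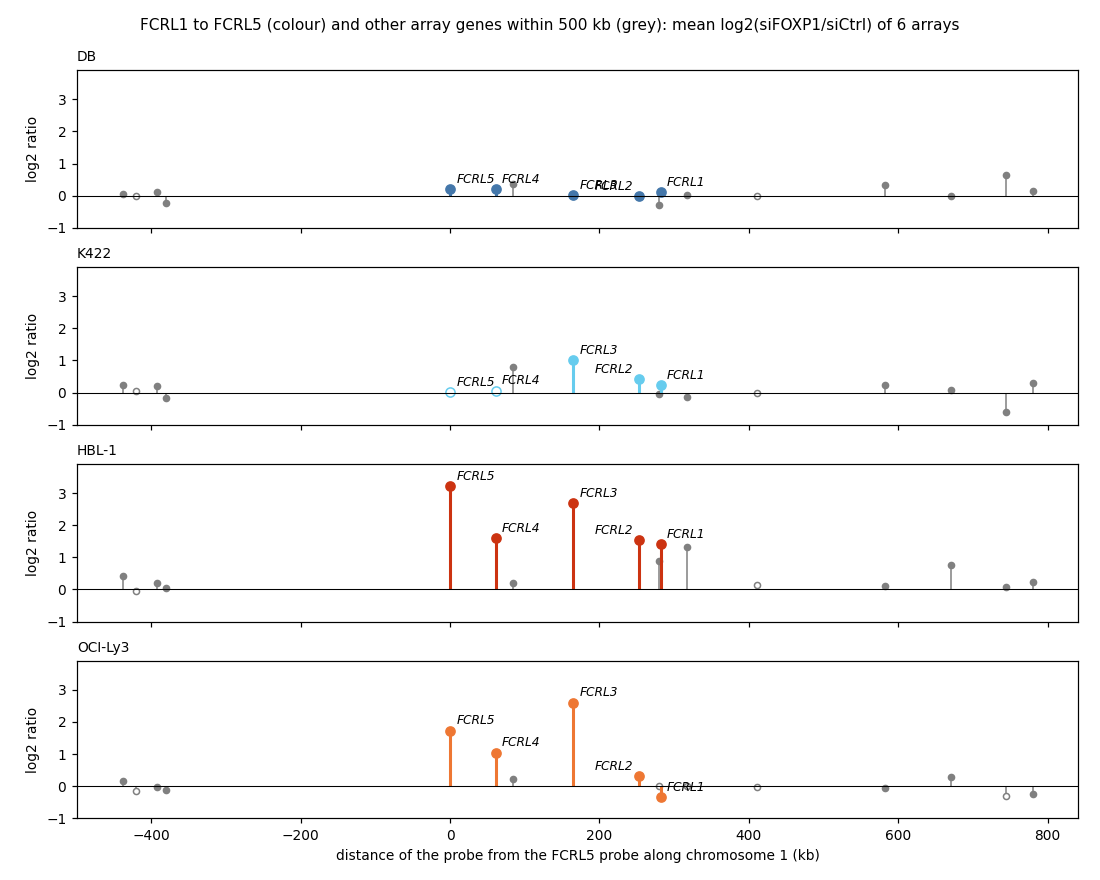
Mean log2(siFOXP1/siCtrl) of 6 arrays per line against the distance in kb from the FCRL5 probe along chromosome 1, with FCRL1 to FCRL5 in colour, the 12 other array genes within 500 kb in grey, and open points where no array was well above background in either channel. In HBL-1 the main probes of all 5 clustered genes stand between 1.42 and 3.22, whereas the 12 other genes reach at most 1.33. The dimmer FCRL1 probe, which is not drawn, averaged 0.79 there. Of the 12 other genes, AF343666 and THC2767659 lie inside the span of the cluster.

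Of the intracellular members, FCRLA was higher on 6 of 6 arrays in HBL-1 (0.44 ± 0.23, adjusted p = 4.30e-06), K422 (0.33 ± 0.13, 0.000253) and OCI-Ly3 (0.19 ± 0.12, 0.019), all under the limit of 0.5, and was at 0.16 ± 0.11 in DB (0.0634). Its second probe gave 0.54 in HBL-1, 0.32 in K422, 0.18 in OCI-Ly3 and 0.14 in DB, and the main probe passed the limit in HBL-1 without replicate 2 of that line (0.52), with normexp and loess (0.52) and with siFOXP1_309 alone (0.61). FCRLB had no single direction. Its main probe was higher on 6 of 6 arrays of HBL-1, from 0.35 through 0.64 to 0.91 (mean 0.63 ± 0.23, adjusted p = 2.17e-06), whereas its other probe was lower on 6 of 6, from -1.52 through -1.37 to -1.20 (mean -1.37 ± 0.15, adjusted p = 1.61e-08). The other probe also averaged -0.50 ± 0.15 in K422, where 2 arrays had an outlier spot and 4 remained, and -0.25 ± 0.11 in OCI-Ly3. Both probes were well above background, the mean of the probes in HBL-1 was -0.37, and the main probe gave 0.22 (adjusted p = 0.265) with normexp and median centring.

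**Figure D5:**
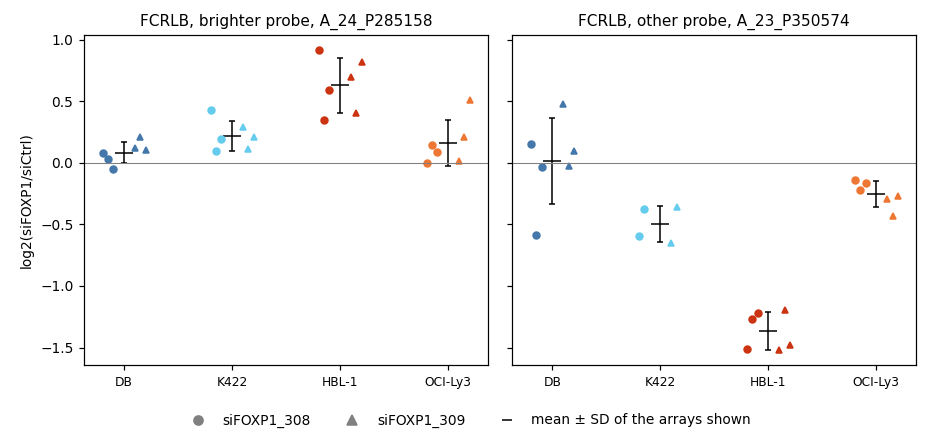
log2(siFOXP1/siCtrl) of the 2 FCRLB probes on each array by line, circles for siFOXP1_308 and triangles for siFOXP1_309, with bars for the mean ± SD of the arrays shown. In HBL-1 the probe that stands for the gene averaged 0.63 and the other -1.37, so the array gives FCRLB no direction.

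FCGR2B, the inhibitory IgG receptor, moved against the FCRL cluster in HBL-1. Its log2 ratio was -0.74, -0.73 and -0.76 with siFOXP1_308 and -0.62, -0.66 and -0.80 with siFOXP1_309, all 6 within a narrow band below 0. The mean was -0.72 ± 0.06 (adjusted p = 3.32e-08). It was also below 0 on 6 of 6 arrays in OCI-Ly3 (-0.28 ± 0.10, adjusted p = 0.00123) and DB (-0.13 ± 0.08, 0.152) and on 5 of 6 in K422 (-0.14 ± 0.23, 0.0744), under the limit in each.

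FCER2, the IgE receptor, was higher in OCI-Ly3, at 0.80, 0.75 and 0.91 with siFOXP1_308 but 0.19, 0.30 and 0.10 with siFOXP1_309, groups that did not overlap. The mean of 0.51 ± 0.35 (adjusted p = 0.000234) lay just past the limit, and its call was lost with normexp (0.33, whether by loess or by median centring), with slide as a random block (0.49), with siFOXP1_309 alone (0.20) and with the methods' t-test after adjustment (0.0757). In HBL-1 FCER2 was at -0.03 ± 0.23, and in DB and K422 neither channel was well above background. FCGBP had its large values in OCI-Ly3, at 1.98, 2.25 and 2.17 with siFOXP1_308 and 2.52, 3.46 and 2.59 with siFOXP1_309. Its mean there was 2.49 ± 0.52, or 5.63-fold, and 1.46 with normexp and loess. FCGBP averaged 0.53 ± 0.60 in K422, 0.37 ± 0.26 in HBL-1 and 0.26 ± 0.36 in DB, with 1 of 6 arrays below 0 in each. The line with the largest FCRL5 ratio, HBL-1, was thus not the line with the largest FCGBP ratio.

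A call required an adjusted p under 0.05 over all genes and a change of at least 0.5 on the log2 scale (1.41-fold). The members were chosen with earlier results of these data known. The shares of all genes are therefore given as background and not as a test of the set. Of the 8 tested members, 5 were higher in HBL-1 (FCRL1, FCRL2, FCRL3, FCRL4 and FCRLB, the last at 1 of its probes), against 5.73% of all genes, and 1 was lower (FCGR2B), against 4.17%. In OCI-Ly3 3 were higher (FCRL3, FCRL4 and FCER2), against 2.80%, and 0 lower, against 1.62%. Of these 3, FCRL3 and FCRL4 had siCtrl not well above background on any array, and none was called with normexp. The rise measured for FCRL3, at least 1.36-fold, lies under the 1.41-fold limit. In K422 1 was higher (FCRL3), against 2.34%, and 0 lower, against 2.10%. In DB 0 were higher and 0 lower with limma and with the methods' t-test after adjustment, against 1.33% and 0.829% of all genes, and 2 had an unadjusted p under 0.05. The number with an unadjusted p under 0.05 in either direction was 8 in OCI-Ly3, 7 in HBL-1 and 6 in K422, and the methods' t-test gave 0 lower in OCI-Ly3 and K422 as well. The median log2 ratio of the 8 fell from 1.02 (HBL-1) through 0.26 (OCI-Ly3) and 0.22 (K422) to 0.08 (DB), and that of all genes was 0.00 in each line.

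Whether the response differed between the subtypes was tested as a contrast, the mean of HBL-1 and OCI-Ly3 minus the mean of DB and K422. FCRL3 differed by 2.14 (adjusted p = 1.10e-07), FCRL4 by 1.19 (0.00403) and FCRL2 by 0.73 (8.94e-06), so 3 of the 8 tested members were called by their main probe, all higher in the ABC-DLBCL lines, against 2.26% of all genes. The sizes of FCRL3 and FCRL4 rest in part on signals at background, since siCtrl was not well above it for FCRL3 in OCI-Ly3 and for FCRL4 in DB, K422 and OCI-Ly3. The other FCRLB probe was called lower, at -0.57 (adjusted p = 0.000947). FCGR2B differed by -0.37 (0.000329), under the limit, and FCRL1 by 0.38 (0.101), since it rose in HBL-1 and was at background in OCI-Ly3. The dimmer FCRL1 probe was called (0.55, adjusted p = 2.46e-05). In DB and OCI-Ly3 that probe was at background and all its ratios were 0. FCRL5 differed by 2.36 and FCGBP by 1.04, without a test, and FCRL5 was at background in K422. With normexp FCRL2 lost its call (0.44 with loess, 0.51 with median centring and adjusted p = 0.0933), as did FCRL4 (0.23 and 0.21). The error of this contrast is that between arrays and not between lines of a subtype.

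Within the scan sessions the contrasts were unequal. HBL-1 minus K422 called 4 members higher, FCRL3 by 1.68 (adjusted p = 5.59e-05), FCRL4 by 1.52 (0.00699), FCRL1 by 1.20 (0.000488) and FCRL2 by 1.13 (2.52e-06), and FCGR2B lower by -0.58 (8.79e-05), where 4.34% of all genes were called in either direction. The FCRL4 call was lost without replicate 2 of K422 (1.34, 0.0537), without replicate 1 of HBL-1 (1.15, 0.0618) and with normexp (0.39 and 0.35), and the FCGR2B call with normexp (-0.44 and -0.38). By main probes, OCI-Ly3 minus DB called FCRL3 alone, at 2.60 (1.37e-06), where 1.43% of all genes were called. That call was lost with normexp (0.39 with loess, adjusted p = 0.196). The siCtrl signal of FCRL3 in OCI-Ly3 was at background, and its dimmer probe gave 0.18 for this contrast (adjusted p = 0.895). The other FCRLB probe was lower in HBL-1 than in K422 by -0.87 (0.000624). FCRL5 differed by 1.53 between OCI-Ly3 and DB. In K422 both channels were at background for FCRL5 and FCRL4, so the size of the difference from HBL-1 is not measured for either. OCI-Ly3 minus DB was 0.33 for FCRL2 (adjusted p = 0.128) and 0.85 for FCRL4 (0.242), so their main probes were called in 1 of the 2 sessions. The second FCRL2 probe was called in both, with 0.83 for OCI-Ly3 minus DB (0.00551), where its siCtrl signal in OCI-Ly3 was above background on 1 array.

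With limma and no replicate block, the 2 siRNAs gave no member a called difference in any line, 0 of 10 in each. The share of all genes called was 0.192% for OCI-Ly3, 0.173% for HBL-1, 0.302% for DB and 0.159% for K422. FOXP1 itself was lower with siFOXP1_309 than with siFOXP1_308 in every line, by a log2 difference from -1.40 in DB to -0.85 in K422, called in each at its main probe. An unadjusted p under 0.05 was found for 4 members in OCI-Ly3, 2 in K422 and 1 each in DB and HBL-1, and the methods' t-test was not run on this contrast. In OCI-Ly3 siFOXP1_309 minus siFOXP1_308 was 1.26 for FCRL3 (adjusted p = 0.135), 0.72 for FCGBP (0.775), 0.52 for FCRL5 (0.934), -0.62 for FCER2 (0.183) and -0.68 for FCRL1 (0.613). FCRL3 was called there without replicate 1 of OCI-Ly3 (1.44, 0.0452) and with the replicate number as a block (1.26, 0.0151). FCRL1 was called there without replicate 3 (-1.26, 0.0289). In OCI-Ly3 the siCtrl signal of FCRL3 was not well above background on any array. That of FCRL1 was on 1 array, and its siFOXP1 signal on none. Whether arrays of the 2 siRNAs with the same replicate number shared a siCtrl RNA is not given in the sources used here, and if they did the 6 arrays of a line are not independent.

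Among 17981 genes well above background in at least 1 channel on 12 or more arrays, the log2 ratio of FCRL5 over the 24 arrays ran closest, by Pearson correlation, with LY75 (0.927), KIAA0746 (0.926), JSRP1 (0.910), PITPNC1 (0.910) and CHST2 (0.906). Their means in HBL-1 were 0.77, 1.08, 2.49, 1.35 and 1.02, and LY75 encodes an endocytic receptor of dendritic cells and B cells. FCRL3 was at rank 140 (0.762) and FCRL2 at rank 167 (0.748), while FCGR2B had a correlation of -0.804. The 24 points share lines, slides and siRNAs and fall by line, so these values describe the arrays only.

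Related receptors and their signalling partners were counted in the same fit. Of 13 other Fc receptor genes on the array, 2 were higher in HBL-1 and none was called in the other lines: FAIM3, the IgM receptor, at 1.29 ± 0.36 (adjusted p = 1.43e-08) and FCGRT, the neonatal receptor for IgG, at 0.70 ± 0.06 (1.04e-06). In each line 6 or 7 of the 13 were not well above background on any siCtrl array, where ratios are often set to 0, and their median lay between -0.03 and 0.00. The share of all genes called in HBL-1, 5.73% higher and 4.17% lower, is the background of these counts. Of 13 other ITIM-bearing receptors, CD22 (0.89) and SIGLEC10 (0.58) were higher and CEACAM1 (-0.70) lower in HBL-1, PECAM1 (0.53) and CEACAM1 (0.59) were higher in OCI-Ly3, PECAM1 (0.65) was higher and PDCD1 (-0.52) and CD300A (-0.68) lower in K422, and none was called in DB. Of 18 genes of ITIM and ITAM signalling, 5 were higher and 1 lower in HBL-1, among them CSK (0.73), a kinase that restrains SRC-family kinases, CD79B (0.59) and CD79A (0.56), the signalling chains of the B cell receptor, and PTPN11 (-0.52), a phosphatase that binds ITIMs. CSK (0.53) was the only one called in OCI-Ly3, and none was called in DB or K422. In HBL-1 the ITIM-bearing receptors had a median of -0.15 and the signalling genes one of 0.22.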

How the data were processed

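RNA of FOXP1-silenced cells (Cy3) and siCtrl cells (Cy5) of 4 DLBCL lines was hybridised to 24 2-colour Agilent arrays. The authors deposited Feature Extraction output (versions 10.5.1.1 for DB and OCI-Ly3, 10.7.3.1 for K422 and HBL-1) holding, for each spot, the intensity in both channels and their log10 ratio (Cy5 to Cy3) after background subtraction and dye normalization. The deposited matrix of log2 values (column medians from -0.17 to 0.07, correlation with the scanner ratios from 0.804 to 0.998) runs as Cy3 over Cy5 and served as an alternative. At background, Feature Extraction uses a surrogate signal or sets the ratio to 0.

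The sign was changed and the base set to 2 to give log2(siFOXP1/siCtrl). Control spots (1639 per array) and outlier spots (113 to 469) were left out, and spots of 1 probe averaged. The probe with the highest mean intensity stood for a gene. limma 3.58.1 in R 4.3.3 fitted 8 group means over the 24 arrays, and both siRNAs of a line weighed equally in its value. siCtrl levels were scaled between arrays by Aquantile. p-values were Benjamini-Hochberg adjusted over all genes, and the code was tested on simulated data.

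Members and gene lists were chosen with earlier results of these data known. All 10 members, FOXP1, up to 4 called genes per list and line, and the 5 genes closest to FCRL5 are named. Alternatives were normexp (offset 50) with loess or median centring, the matrix, dim-probe filters, outlier spots kept, other probes, replicate or slide as a block, lines alone, the methods' t-test, another prior, single siRNAs, a limit of 1, percentile scaling and leaving out replicates. Promoter sequences are RefSeq's (GRCh38.p14), in which all 10 members matched.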

Additional observations from a re-analysis of the deposited data

Results flagged for a closer look

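Among 40 groups of 6 arrays, 1 for each member and line, 3 held an array far from the others, and chance alone flags about 1 in 20. FCRL1 in DB was at -0.56 on the log2 scale with siFOXP1_308 replicate 2, the nearest array being at 0.06. FCGR2B in K422 was at 0.32 with siFOXP1_308 replicate 1, the nearest being at -0.19. FCER2 in DB was at 0.49 with siFOXP1_308 replicate 3 and at 0 on the other 5 arrays, with neither channel well above background on any of them.

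The response differed between ABC-DLBCL and GCB-DLBCL lines for FCRL2 (0.73), FCRL3 (2.14) and FCRL4 (1.19). It differed between OCI-Ly3 and DB for FCRL3 (2.60), at its main probe only and with siCtrl at background in OCI-Ly3. Between HBL-1 and K422 it differed for FCRL1 (1.20), FCRL2 (1.13), FCRL3 (1.68), FCRL4 (1.52) and FCGR2B (-0.58). Each is a difference of log2 ratios called with limma.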

How the results depend on the processing

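The number of tested members higher in HBL-1 was 5, 3 with normexp and median centring, and between 5 and 6 when a replicate was left out. The number lower there was 1, 0 at a log2 limit of 1 and 2 with every probe on its own. In OCI-Ly3 the number higher was 3, 0 with normexp and loess or median centring, 1 with the methods' t-test after adjustment, and between 2 and 3 without a replicate. With siFOXP1_309 alone 1 was lower there, FCRL1 (-0.68), whose siFOXP1 signal was not well above background on any array. Between the subtypes 3 were called, and 1 with normexp and loess or median centring. OCI-Ly3 minus DB called 1, 0 with normexp and loess or median centring, and between 1 and 2 without a replicate, FCER2 being called without replicate 3 of DB. HBL-1 minus K422 called 5, 3 with normexp and loess or median centring, and between 4 and 6 without a replicate. Of the siCtrl levels 8 were called between OCI-Ly3 and DB, and 5 with normexp, loess and Aquantile. FCRLB in HBL-1 turned to -0.37 (adjusted p = 8.30e-05) with the mean over its probes. The cause of these changes was not tested.

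Filters on dim probes left 9 of the 10 members, FCRL4 being left out. The labels call the replicates biological replicates and do not tie arrays of the same number, and the deviations of their log2 ratios from the group means correlated at 0.047 to 0.284 over all genes, so a pairing was not established for the ratios. Their siCtrl levels correlated at 0.045 to 0.498 over all genes and at 0.475 to 0.942 over genes well above background on every array, and such arrays were averaged for the siCtrl comparisons. With arrays of the same number as a replicate block, 1 member (FCRL3, adjusted p = 0.0151) differed between the siRNAs in OCI-Ly3 in place of 0 (between 0 and 1 without a replicate), and no call per line or between subtypes was lost or gained.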
